A study of Mus musculus with 6 samples.

Results

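The surrogate light chain and recombination genes Igll1, Vpreb1, Vpreb2, Vpreb3, Rag1, Rag2 and Dntt were read in B cells that carried an introduced Sox2. The 7 genes were chosen by their symbols in the deposited count table, which lists 37620 genes, and each had 1 row. The pMIR-Sox2 cells (3 libraries) were infected with a retroviral vector carrying Sox2, and the pMIR cells, their controls (3 libraries), with the empty vector. Both groups were B cells from spleens of C57Bl/6 mice aged 4 months. Both were stimulated with IL-4 (12.5 µg/ml) and anti-CD40 (1 µg/ml), infected at 24 and at 48 h, and sorted at 96 h for mCherry, which marks infected cells. The introduced Sox2 is read from the vector and not from its own locus. Nothing in the labels ties a replicate to an animal of its own, so p-values cover the spread of these libraries, which may be technical.

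Gene counts summed to between 17153805 and 20770447 per library in pMIR-Sox2 cells and to between 21421769 and 27692437 in pMIR cells. Levels are given as raw counts and as CPM, counts scaled to libraries of one common size, where a library's own size is the sum of its tested genes' counts multiplied by a trimmed-mean scaling factor. Sox2 itself reached 989, 786 and 624 CPM in pMIR-Sox2 replicates 1 to 3, against 0.738, 0.334 and 1.78 CPM in pMIR replicates 1 to 3, so each library went with its label. Among the mature B cell markers, Cd79a averaged 764 ± 112 CPM in pMIR-Sox2 cells and 652 ± 105 CPM in pMIR cells (SD, n = 3 each). In bulk samples such as these, fewer cells of a type and less RNA per cell cannot be told apart.

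A B cell builds its antibody genes in the bone marrow. RAG1 and RAG2 together cut the V, D and J segments, TdT (the product of Dntt) adds bases at the heavy chain joints, and the non-homologous end-joining proteins close them. Before a light chain exists, the new heavy chain is paired with a surrogate light chain made of λ5 (Igll1) and a VpreB protein (Vpreb1 or Vpreb2), and this pre-B cell receptor signals for survival and division. Igll1, Vpreb1 and Vpreb2 are normally read in pro-B and large pre-B cells and shut down afterwards, and Rag1, Rag2 and Dntt are silent in activated mature B cells. Vpreb3 differs from the others in that it stays on later and its protein binds immunoglobulin chains in the endoplasmic reticulum.

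Igll1, Vpreb1 and Vpreb2 all lie on chromosome 16, Vpreb3 on chromosome 10, Rag1 and Rag2 side by side on chromosome 2, and Dntt on chromosome 19. The 250 bases before the start of Igll1 are shown because this gene had the clearest difference between the groups. They lie on the minus strand at chr16:16863986-16864235 of GRCm38.p6 (RefSeq), and the capitals mark the E boxes, the CANNTG letters that E proteins such as the Tcf3, Tcf4 and Tcf12 products bind.

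Igll1 promoter: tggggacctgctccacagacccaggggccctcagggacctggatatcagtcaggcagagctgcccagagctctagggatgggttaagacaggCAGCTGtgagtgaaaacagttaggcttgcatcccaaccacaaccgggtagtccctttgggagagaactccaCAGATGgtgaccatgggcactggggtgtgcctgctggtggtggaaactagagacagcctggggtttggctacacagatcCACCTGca

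The next pair shows how alike Vpreb1 and Vpreb2 are upstream, although at different distances from their annotated starts. The last 106 bases before the Vpreb1 start (minus strand, chr16:16869256-16869361) are repeated 250 to 145 bases before the Vpreb2 start (plus strand, chr16:17980315-17980420, both GRCm38.p6) with 104 identical bases, or 98.1%, and the 2 that differ are in capitals.

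Vpreb1 promoter stretch: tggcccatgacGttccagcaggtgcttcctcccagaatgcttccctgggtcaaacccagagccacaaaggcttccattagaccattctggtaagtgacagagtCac
Vpreb2 promoter stretch: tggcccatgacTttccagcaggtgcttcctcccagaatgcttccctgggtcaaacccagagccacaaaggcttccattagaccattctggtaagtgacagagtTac

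The coding sequences of the pair, each 426 bases long, differ at 9 bases and are identical at 417 (97.9%), whereas Vpreb1 and Vpreb3 are identical at 45.0% of aligned positions. The stretch of coding bases 268 to 387 (GENCODE M21) holds 6 of the 9 differences, again in capitals.

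Vpreb1 coding stretch: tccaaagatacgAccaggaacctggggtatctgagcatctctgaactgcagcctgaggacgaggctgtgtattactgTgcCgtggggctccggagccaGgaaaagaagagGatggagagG
Vpreb2 coding stretch: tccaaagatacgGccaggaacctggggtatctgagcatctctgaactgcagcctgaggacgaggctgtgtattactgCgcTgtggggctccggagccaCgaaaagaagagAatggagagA

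Of all 50-base windows along the annotated transcripts, 233 were the same in both genes, which is 18.8% of those of Vpreb1 and 32.8% of those of Vpreb2. Reads that align equally well to both were not given to either where the counting left out alignments that were not unique, and such alignments made up 23.1 to 26.5% of a library's table total in pMIR-Sox2 cells and 25.7 to 26.0% in pMIR cells. The counts of Vpreb1 and Vpreb2 are therefore uncertain one against the other. Read along their own strand, Igll1, Vpreb3, Rag2 and Dntt shared no such window with another gene. Exons of Rag2 do overlap those of B230118H07Rik on the opposite strand, which this comparison does not see.

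The surrogate light chain genes Igll1, Vpreb1 and Vpreb2 were close to absent in pMIR cells and low but present in every pMIR-Sox2 library. Igll1 had by far the most counts of the 3. The recombination genes Rag1 and Dntt stayed at a few counts in both groups, Rag2 had a few in pMIR-Sox2 cells and 0 in pMIR cells, and Vpreb3 was plainly read in both. Summed over Igll1, Vpreb1 and Vpreb2, there were 154, 80 and 58 counts in pMIR-Sox2 replicates 1 to 3, against 4, 1 and 5 counts in pMIR replicates 1 to 3. The sum of Rag1, Rag2 and Dntt was 4, 3 and 7 counts in the pMIR-Sox2 libraries, against 3, 1 and 3 counts in the pMIR libraries.

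**Figure D1:**
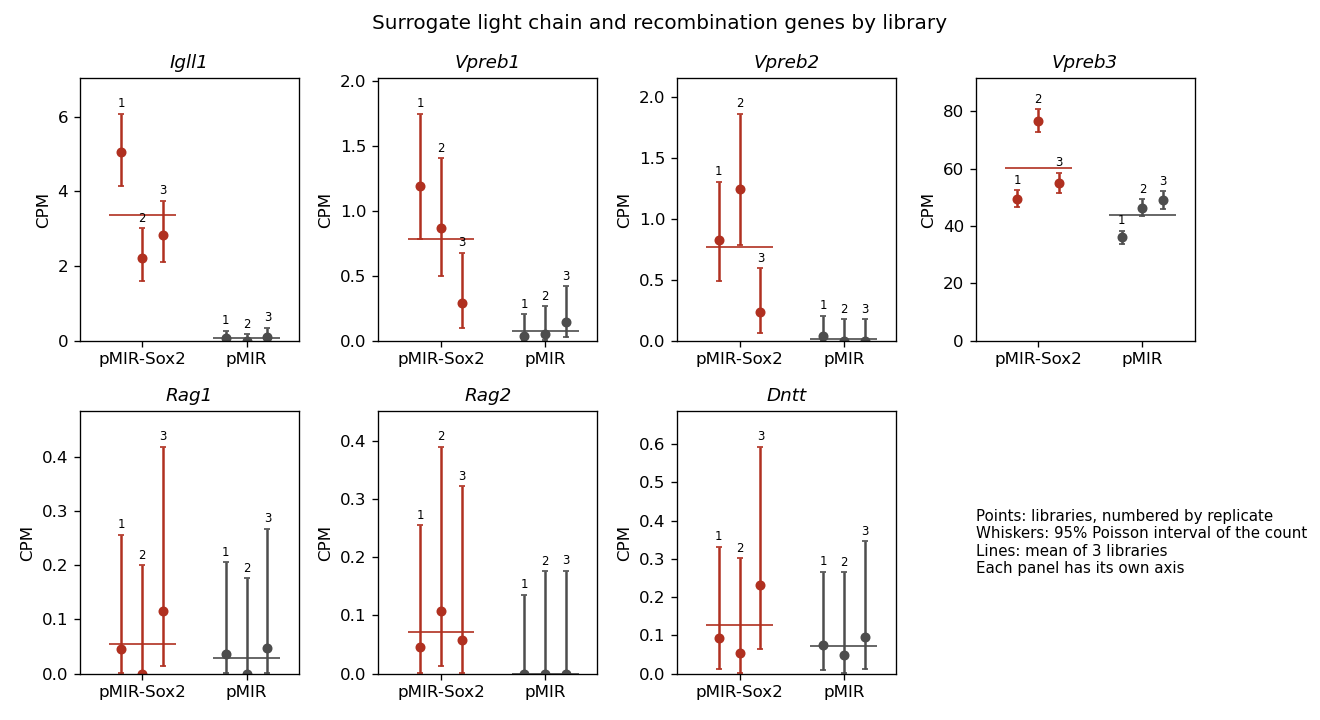
CPM of the 7 genes (a panel each, with its own linear axis from 0), pMIR-Sox2 left of pMIR, with a numbered point per library, whiskers for the 95% Poisson interval of its count and a line at the mean of 3 libraries. Igll1, Vpreb1, Vpreb2, Vpreb3 and Rag2 sit higher in all 3 pMIR-Sox2 libraries than in any pMIR library, Rag2 on 1 or 2 counts each. Vpreb3 lies between 36.0 and 76.8 CPM. The points of Rag1 and Dntt overlap between the groups, and the whiskers overlap for every gene but Igll1.

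Igll1 encodes λ5, the constant-like chain of the surrogate light chain. It had 110, 41 and 49 counts in pMIR-Sox2 replicates 1 to 3 (5.05, 2.22 and 2.84 CPM) and 2, 0 and 2 counts in pMIR replicates 1 to 3 (0.0738, 0 and 0.0960 CPM). All 3 pMIR-Sox2 libraries lay above all 3 pMIR libraries, and replicate 1 stood above the other pMIR-Sox2 libraries, its exact Poisson 95% interval of 4.15 to 6.09 CPM not reaching theirs of 1.59 to 3.01 and 2.10 to 3.75 CPM. The means were 3.37 ± 1.49 CPM in pMIR-Sox2 cells and 0.0566 ± 0.0503 CPM in pMIR cells (SD, n = 3 each). The rise was 5.73 ± 0.59 on the log2 scale (SE) with an adjusted p of 0.000127 by edgeR's quasi-likelihood test. On the CPM scale the ratio of the summed counts, 200 against 4, was 59.9, with an exact 95% interval of 23.0 to 222 that covers counting error only. Without any 1 library the log2 fold change ran from 5.24 to 6.16.

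Vpreb1 and Vpreb2 encode the V-like chain. Vpreb1 had 26, 16 and 5 counts in pMIR-Sox2 replicates 1 to 3 (1.19, 0.865 and 0.290 CPM), against 1, 1 and 3 counts in pMIR replicates 1 to 3 (0.0369, 0.0477 and 0.144 CPM). Vpreb2 had 18, 23 and 4 counts in the pMIR-Sox2 libraries (0.827, 1.24 and 0.232 CPM), against 1, 0 and 0 counts in the pMIR libraries (0.0369, 0 and 0 CPM). Neither gene's groups overlapped, but pMIR-Sox2 replicate 3 came near the highest pMIR library for Vpreb1, and it was the lowest pMIR-Sox2 library for both genes.

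Both genes fell short of the filter on low counts and so had no value in the fit of the filtered genes. Fitted with no filter over 21715 genes, Vpreb1 rose by 3.37 ± 0.64 on the log2 scale (adjusted p = 3.94e-05, edgeR), and by 4.08 without pMIR replicate 3, which holds 3 of its 5 pMIR counts. In the same fit Vpreb2 had an adjusted p of 5.03e-06 in edgeR. Without pMIR replicate 1 its pMIR libraries hold 0 counts and no fold is given. With no filter, DESeq2 gave adjusted p values of 0.00156 for Vpreb1 and 0.000401 for Vpreb2, and limma-voom gave 0.00332 and 0.000515. The edgeR fit with no filter also gave Igll1 an adjusted p of 2.79e-11, against 0.000127 with the filter. Adjusted p values of the 2 edgeR fits therefore cannot be used to rank these genes. As ratios of summed counts on the CPM scale, with exact 95% counting intervals, Vpreb1 was 11.3 times higher in pMIR-Sox2 cells (4.50 to 36.3) and Vpreb2 53.9 times (9.20 to 2177, on 1 pMIR count). Counted as 1 feature, which sets aside how reads were split between the pair, Vpreb1 and Vpreb2 passed the filter through their pMIR-Sox2 counts. The feature rose by 4.08 ± 0.67 on the log2 scale (adjusted p = 0.00132, edgeR).

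Per kilobase of exon (GENCODE M21), the scale on which genes can be set against each other, the order of the 3 genes in pMIR-Sox2 cells was Igll1, Vpreb2, Vpreb1, and the libraries of neighbours in it overlapped. Igll1 averaged 1.56 ± 0.689 CPM per kilobase there, against 0.0262 ± 0.0232 in pMIR cells. Vpreb2 averaged 1.01 ± 0.670 in pMIR-Sox2 cells and 0.0162 ± 0.0281 in pMIR cells, and Vpreb1 averaged 0.653 ± 0.382 in pMIR-Sox2 cells and 0.0635 ± 0.0492 in pMIR cells (SD, n = 3 each). Igll1 and Vpreb1 did not overlap as computed, with 1.02 to 2.34 CPM per kilobase for Igll1 and 0.242 to 0.996 for Vpreb1 in the pMIR-Sox2 libraries. The exon lengths were not reduced for the windows shared between Vpreb1 and Vpreb2 (18.8% and 32.8% of theirs), where reads may not have been counted. The levels of both may thus be too low beside Igll1, and neither the narrow gap nor the order is firm. For scale, Ighm, the µ heavy chain that the surrogate light chain pairs with, averaged 1703 ± 187 CPM per kilobase in pMIR-Sox2 cells and 2296 ± 334 in pMIR cells. The conventional κ light chain gene Igkc averaged 985 ± 164 in pMIR-Sox2 cells and 2025 ± 244 in pMIR cells.

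Vpreb3, the member read in mature B cells, had 1076, 1419 and 948 counts in pMIR-Sox2 replicates 1 to 3 (49.4, 76.8 and 54.9 CPM) and 976, 973 and 1020 counts in pMIR replicates 1 to 3 (36.0, 46.4 and 49.0 CPM). The lowest pMIR-Sox2 library and the highest pMIR library were nearly level, with no overlap, and pMIR-Sox2 replicate 2 stood well above the rest. The means were 60.4 ± 14.5 CPM in pMIR-Sox2 cells and 43.8 ± 6.87 CPM in pMIR cells (SD, n = 3 each), a log2 fold change of 0.46 ± 0.18 that did not pass (adjusted p = 0.0618, edgeR). With the replicate number as a block it passed (adjusted p = 0.00291, edgeR), and it did so too with no filter (0.0186), with library totals alone (0.0349), in DESeq2 (0.0402) and on leaving out pMIR-Sox2 replicate 1 (0.0457). Leaving out pMIR-Sox2 replicate 2 gave a log2 fold change of 0.26, and leaving out pMIR replicate 1 gave 0.33. Vpreb3 made up 87.2, 94.5 and 93.6% of the counts of all 7 genes in pMIR-Sox2 replicates 1 to 3 and 99.3, 99.8 and 99.2% in pMIR replicates 1 to 3. At 70.3 ± 16.8 CPM per kilobase in pMIR-Sox2 cells and 51.0 ± 7.99 in pMIR cells it was the highest of the 7 genes in every library.

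Rag1 and Rag2, the recombinase, were at the limit of detection in both groups. Rag1 had 1, 0 and 2 counts in pMIR-Sox2 replicates 1 to 3 and 1, 0 and 1 counts in pMIR replicates 1 to 3. Rag2 had 1, 2 and 1 counts in the pMIR-Sox2 libraries and 0 in each pMIR library. A count of 0 in a group allows up to 3 counts, or 0.0522 CPM over the pMIR-Sox2 libraries and 0.0435 CPM over the pMIR libraries. Rag1 is at or under that limit in both groups, so no fold is given, and its adjusted p with no filter was 0.730 (edgeR). The 4 counts of Rag2 came to 0.0696 CPM over the pMIR-Sox2 libraries, and no fold is given. With no filter its adjusted p was 0.126 in edgeR and 0.0186 in limma-voom.

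Dntt, which encodes TdT, had 2, 1 and 4 counts in pMIR-Sox2 replicates 1 to 3 and 2, 1 and 2 counts in pMIR replicates 1 to 3. The groups overlapped, and the ratio of summed counts on the CPM scale was 1.68 with an exact 95% interval of 0.458 to 6.70 (adjusted p = 0.605 with no filter, edgeR). A difference in Rag1 or Dntt of a few fold was not detectable at this depth.

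Of the 7 genes, 2 passed the filter on low counts, Igll1 and Vpreb3, and 1 of these, Igll1, rose. Igll1 passed only through its pMIR-Sox2 counts (110, 41 and 49, against 2, 0 and 2 in the pMIR libraries). Its place among the genes that rose is therefore not independent of the filter. Across all 12898 genes tested other than Sox2, 23.2% rose and 20% fell, and 2 tested members are too few to set against these shares. None of the 7 fell in edgeR, limma-voom or DESeq2, and 0 were lower at an unadjusted p under 0.05. With no filter 4 rose (Igll1, Vpreb1, Vpreb2 and Vpreb3), where 15.3% of the genes fitted rose and 11.1% fell. The number that rose was 2 on leaving out pMIR-Sox2 replicate 1. It was 3 on leaving out pMIR-Sox2 replicate 3 or any 1 of the pMIR libraries, where Vpreb1 and Vpreb2 came through the filter. Both came through by their pMIR-Sox2 counts alone, so these rises are not independent of the filter either. In 5 of the 7 genes, all but Rag1 and Dntt, every pMIR-Sox2 library lay above every pMIR library, and 28.9% of the tested genes did the same. Vpreb1, Vpreb2 and Rag2 are not among the tested genes. The share among genes of their low depth was not computed, so the 5 cannot be set against 28.9%. The two-sided exact permutation p of each of these 5 was 0.1, the smallest that 3 libraries against 3 allow, and it was 0.7 for Rag1 and 0.5 for Dntt. Igll1, Vpreb1, Vpreb2, Rag1 and Dntt had 1 to 5 pMIR counts in all, as 4477 genes did. Of these 4477 genes, 71 (1.59%) had at least the 45 pMIR-Sox2 counts of Vpreb2. Igll1, Vpreb1 and Vpreb2 are among the 71 by the choice of this cut, and Rag1 (3 counts) and Dntt (7 counts) are not. The class and the cut come from the members' own values, so this share does not test them.

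The loci around the members were read next, from the nearest protein-coding gene in the count table on either side. Spag6, beside Igll1 (Spag6l in RefSeq), had 9, 14 and 1 counts in pMIR-Sox2 replicates 1 to 3 and 3, 1 and 0 counts in pMIR replicates 1 to 3, too few to be tested. Top3b, a topoisomerase gene on the opposite strand whose exons overlap those of Vpreb1, averaged 70.9 ± 10.3 CPM in pMIR-Sox2 cells and 51.4 ± 1.41 CPM in pMIR cells (SD, n = 3 each), and rose by 0.46 ± 0.12 on the log2 scale (adjusted p = 0.0117, edgeR). Whether the counting used strand is not given in the sources used here, and without it reads from Vpreb1 and Top3b cannot be told apart in the shared bases. Beside Vpreb2, Slc25a1, the mitochondrial citrate carrier, averaged 125 ± 13.1 CPM in pMIR-Sox2 cells and 138 ± 7.15 CPM in pMIR cells and did not pass (adjusted p = 0.319, edgeR). Dgcr6, on its other side, averaged 22.7 ± 3.84 CPM in pMIR-Sox2 cells and 18.5 ± 0.587 CPM in pMIR cells (adjusted p = 0.120, edgeR), and passed without pMIR-Sox2 replicate 3 (adjusted p = 0.0273).

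The neighbours of Vpreb3 went opposite ways. Chchd10, a mitochondrial protein gene, averaged 89.3 ± 15.4 CPM in pMIR-Sox2 cells and 50.9 ± 4.37 CPM in pMIR cells and rose by 0.81 ± 0.14 on the log2 scale (adjusted p = 0.00152, edgeR). Zfp280b, a zinc finger gene, averaged 103 ± 11.3 CPM in pMIR-Sox2 cells and 186 ± 14.8 CPM in pMIR cells and fell by 0.85 on the log2 scale (SE 0.11, adjusted p = 0.00048, edgeR).

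Both outer neighbours of the silent Rag pair rose. Traf6, which relays signals from CD40 and Toll-like receptors, had 289, 264 and 236 CPM in pMIR-Sox2 replicates 1 to 3, against 123, 112 and 99.8 CPM in pMIR replicates 1 to 3, a rise of 1.23 ± 0.12 on the log2 scale (adjusted p = 9.65e-05, edgeR). B230118H07Rik (Iftap in RefSeq), whose exons overlap those of both Rag1 and Rag2, had 55, 76 and 38 counts in the pMIR-Sox2 libraries and 15, 15 and 12 in the pMIR libraries. It rose by 2.26 ± 0.32 on the log2 scale (adjusted p = 0.000659, edgeR), and all of its pMIR-Sox2 libraries lay above all of its pMIR libraries. A read in the shared exons could have been set aside as ambiguous, and ambiguous reads were 0.284 to 0.289% of a library's table total in pMIR-Sox2 cells and 0.283 to 0.307% in pMIR cells. Their part in the low Rag1 and Rag2 counts was not tested. Beside Dntt, Blnk, the linker of B cell receptor signalling, averaged 197 ± 37.3 CPM in pMIR-Sox2 cells and 235 ± 10.1 CPM in pMIR cells (adjusted p = 0.160, edgeR, but 0.0139 without pMIR-Sox2 replicate 2), and Opalin had 3 counts in pMIR-Sox2 cells and 2 in pMIR cells.

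**Figure D2:**
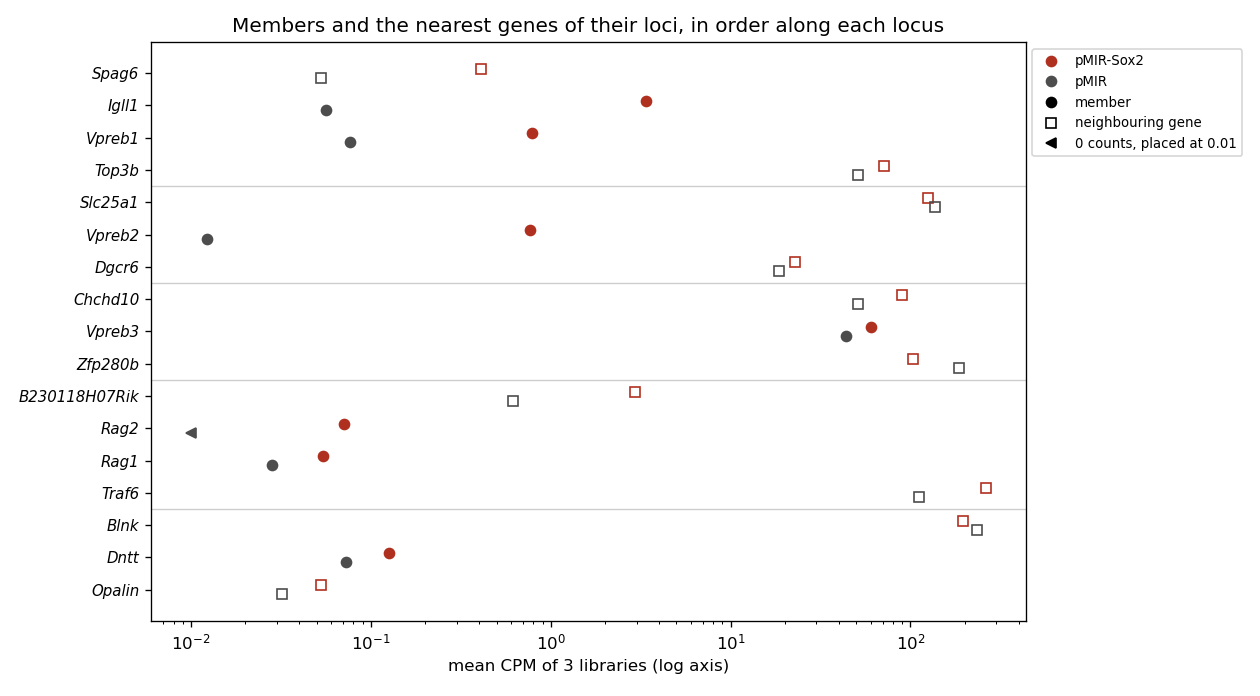
Mean CPM of each member and its nearest protein-coding neighbours on a log axis, pMIR-Sox2 (red) above pMIR (grey) for each gene, filled for members and open for neighbours, with a mean of 0 placed at 0.01 CPM. Igll1 stands at 3.37 CPM in pMIR-Sox2 cells and 0.0566 CPM in pMIR cells and Top3b at 70.9 and 51.4 CPM, while Traf6 and B230118H07Rik are higher in pMIR-Sox2 cells on either side of Rag1 and Rag2.

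The upstream windows of all 7 genes were in the RefSeq table and were searched on both strands for 5 motifs, each set beside its share of 32851 windows of the same 250 bases. The Sox core ACAATG was found before Rag1 and before no other member, and 10.7% of all windows hold it. E boxes (CANNTG) were found before all 7 genes, 3 before Igll1, 1 before Vpreb1, 2 before Vpreb2, 5 before Vpreb3, 3 before Rag1, 1 before Rag2 and 3 before Dntt, but 66.2% of all windows hold at least 1. The octamer ATGCAAAT, bound by Oct proteins, stood before Vpreb3 and before no other member (1.60% of windows). The Ikaros core TGGGAA stood before Vpreb2 and Rag1 (21.6% of windows), and the EBF palindrome stood before none of the 7 (0.779% of windows).

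Across the 6 libraries the genes most like Igll1, by the root mean square difference of centred log2 CPM, were Itgb8 (0.391), Sox4 (0.404) and Ndp (0.406). Itgb8, the β8 integrin, averaged 2.12 ± 1.20 CPM in pMIR-Sox2 cells and 0.0246 ± 0.0426 CPM in pMIR cells (SD, n = 3 each, adjusted p = 0.000396, edgeR), with counts in pMIR from replicate 1 alone. Sox4, a SoxC transcription factor that early B cells need, averaged 956 ± 143 CPM in pMIR-Sox2 cells and 39.9 ± 8.80 CPM in pMIR cells and rose by 4.58 ± 0.20 on the log2 scale (adjusted p = 4.39e-06, edgeR). Ndp, the norrin ligand, averaged 2.26 ± 0.660 CPM in pMIR-Sox2 cells and was at 0 in all 3 pMIR libraries. The genes most like Vpreb3 were Zfp580 (0.0613), Chrnb1 (0.0692) and Sec31b (0.0739). Of these Zfp580 averaged 9.67 ± 2.11 CPM in pMIR-Sox2 cells and 6.73 ± 0.691 CPM in pMIR cells and did not pass (adjusted p = 0.0526, edgeR). With the replicate block Zfp580 (adjusted p = 0.0140) and Chrnb1 (adjusted p = 0.0322, both edgeR) passed, as Vpreb3 did. Sec31b passed under no alternative (lowest adjusted p = 0.157 over the edgeR, DESeq2 and limma-voom fits). The genes most like Igll1 and those most like Vpreb3 were all picked for that likeness in these same libraries. Their calls are therefore no separate evidence on Igll1 or Vpreb3.

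The other genes of these pathways were counted from lists taken from textbook knowledge, to be read beside all tested genes, of which 23.2% rose and 20% fell with a median log2 fold change of -0.02. Among the factors known to switch on early B cell genes, 24 of 25 were tested, 9 rose, 6 fell and 9 did not pass, with a median of 0.10. The E protein genes moved unequally. Tcf12 (HEB) averaged 820 ± 201 CPM in pMIR-Sox2 cells and 110 ± 1.05 CPM in pMIR cells and rose by 2.89 ± 0.18 on the log2 scale (adjusted p = 1.47e-05, edgeR). Tcf4 (E2-2) rose by 1.29 ± 0.13 to 656 ± 56.9 CPM in pMIR-Sox2 cells, against 269 ± 34.5 CPM in pMIR cells (adjusted p = 0.000113, edgeR). Tcf3, which encodes E12 and E47, averaged 395 ± 14.4 CPM in pMIR-Sox2 cells and 384 ± 31.1 CPM in pMIR cells (adjusted p = 0.789, edgeR).

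Gfi1, a repressor with a part in early lymphoid cells, averaged 57.1 ± 6.41 CPM in pMIR-Sox2 cells and 15.2 ± 2.09 CPM in pMIR cells and rose by 1.91 ± 0.14 on the log2 scale (adjusted p = 2.60e-05, edgeR). Ebf1 and Pax5, which with the E proteins drive Igll1 and Vpreb1 in pro-B cells, were both higher by 0.89 on the log2 scale: Ebf1 averaged 229 ± 36.6 CPM in pMIR-Sox2 cells and 123 ± 14.8 CPM in pMIR cells (adjusted p = 0.00103), and Pax5 347 ± 71.7 CPM in pMIR-Sox2 cells and 187 ± 15.5 CPM in pMIR cells (adjusted p = 0.00166, both edgeR). Foxo1, an activator of Rag1 and Rag2, averaged 244 ± 27.7 CPM in pMIR-Sox2 cells and 226 ± 11.4 CPM in pMIR cells (adjusted p = 0.458, edgeR). Irf4 and Ikzf1, which take part in shutting down the surrogate light chain genes in pre-B cells, both fell. Irf4 averaged 143 ± 17.1 CPM in pMIR-Sox2 cells and 472 ± 166 CPM in pMIR cells (log2 fold change -1.72, adjusted p = 0.000494), and Ikzf1 386 ± 13.8 CPM in pMIR-Sox2 cells and 507 ± 33.2 CPM in pMIR cells (log2 fold change -0.39, adjusted p = 0.0125, both edgeR). Ikzf1 missed the threshold on leaving out pMIR replicate 1 (adjusted p = 0.0623, edgeR). Ikzf3, of the same list, averaged 185 ± 22.4 CPM in pMIR-Sox2 cells and 212 ± 31.1 CPM in pMIR cells and did not pass (adjusted p = 0.269, edgeR). The part of these factors in the values of the 7 members was not tested.

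**Figure D3:**
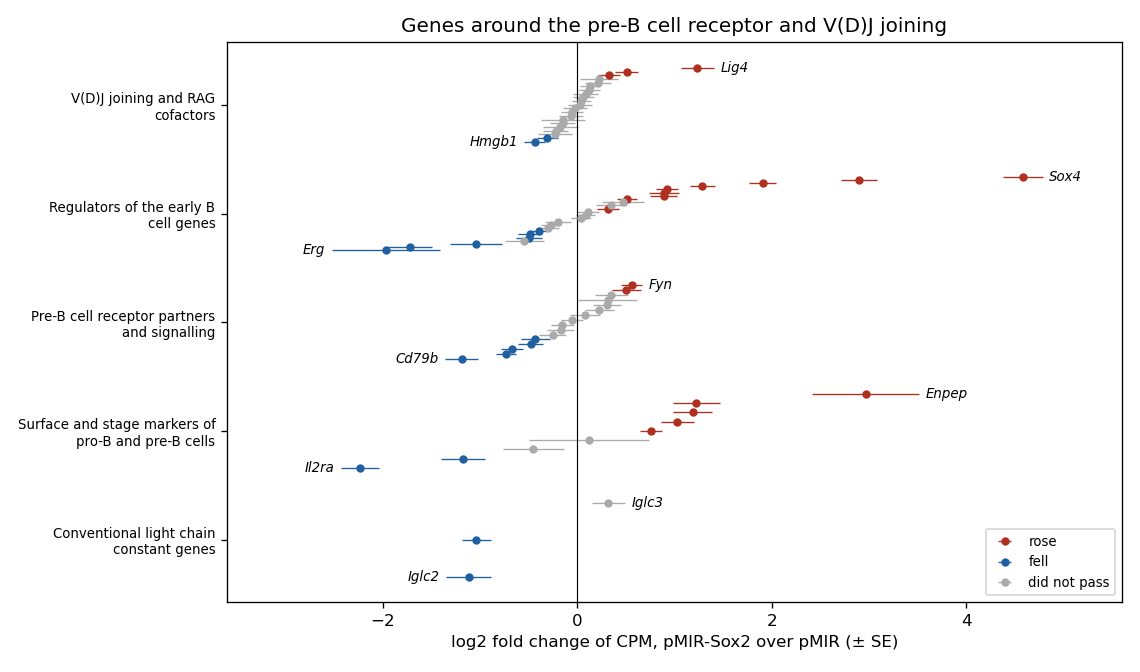
Log2 fold change of pMIR-Sox2 over pMIR for each tested gene of the pathway lists, a point per gene with its SE, red where it rose and blue where it fell at an adjusted p under 0.05 (edgeR), grey where it did not pass. The early B cell regulators and the stage markers spread to both sides of 0, most end-joining genes lie near 0, and Igkc and Iglc2 lie below it.

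The end-joining and RAG cofactor genes, which close the breaks that RAG1 and RAG2 make, were all read: 21 of 21 were tested, 3 rose, 2 fell and 16 did not pass, with a median log2 fold change of 0.03. Lig4, the ligase of the joining step, averaged 15.1 ± 0.939 CPM in pMIR-Sox2 cells and 6.45 ± 1.21 CPM in pMIR cells and rose by 1.23 ± 0.17 on the log2 scale (adjusted p = 0.000552, edgeR). Rnf8, a ubiquitin ligase at breaks, averaged 46.3 ± 5.17 CPM in pMIR-Sox2 cells and 32.5 ± 2.87 CPM in pMIR cells and rose by 0.51 ± 0.12 (adjusted p = 0.00770, edgeR). Hmgb1, the DNA-bending partner of RAG, averaged 290 ± 28.3 CPM in pMIR-Sox2 cells and 392 ± 8.90 CPM in pMIR cells and fell by 0.44 on the log2 scale (adjusted p = 0.00983, edgeR). Mre11a, of the break-sensing complex, averaged 58.9 ± 6.54 CPM in pMIR-Sox2 cells and 72.8 ± 1.61 CPM in pMIR cells (adjusted p = 0.0423, edgeR), and it lost the call without any 1 library other than pMIR-Sox2 replicate 3, so that 1 gene fell in those fits, and 3 without that library.

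The partners of the surrogate light chain in the pre-B cell receptor and its signalling chain were tested in 16 of 16 genes, of which 2 rose, 5 fell and 9 did not pass (median log2 fold change -0.10). Of the signalling subunits, Cd79b (Igβ) averaged 347 ± 67.7 CPM in pMIR-Sox2 cells and 790 ± 109 CPM in pMIR cells and fell by 1.19 on the log2 scale (adjusted p = 0.000608, edgeR), whereas Cd79a (Igα) did not pass (adjusted p = 0.255, edgeR). Plcg2, which makes the calcium signal, averaged 208 ± 19.7 CPM in pMIR-Sox2 cells and 345 ± 4.84 CPM in pMIR cells and fell by 0.73 (adjusted p = 0.000668, edgeR). Fyn, a Src family kinase, averaged 197 ± 22.6 CPM in pMIR-Sox2 cells and 133 ± 5.87 CPM in pMIR cells and rose by 0.56 ± 0.11 (adjusted p = 0.00350, edgeR). With the replicate block 5 of the 16 rose in place of 2. It was 1 on leaving out pMIR-Sox2 replicate 1 or 2 or pMIR replicate 1 or 3, and 4 on leaving out pMIR replicate 2. The number that fell was 3 on leaving out pMIR-Sox2 replicate 1 or pMIR replicate 3.

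Conventional light chains take the place of the surrogate once a light chain gene has been joined. Igkc averaged 524 ± 87.2 CPM in pMIR-Sox2 cells and 1077 ± 130 CPM in pMIR cells and fell by 1.04 on the log2 scale (adjusted p = 0.000679, edgeR). Iglc2 averaged 76.8 ± 25.2 CPM in pMIR-Sox2 cells and 166 ± 32.1 CPM in pMIR cells and fell by 1.12 (adjusted p = 0.00501, edgeR). Iglc3, a near copy of Iglc2 with which reads can be split, averaged 268 ± 66.1 CPM in pMIR-Sox2 cells and 215 ± 22.6 CPM in pMIR cells and passed with the replicate block alone (adjusted p = 0.160, and 0.0242 with the block, edgeR).

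Of 12 surface and stage markers of pro-B and pre-B cells, 9 were tested, 5 rose, 2 fell and 2 did not pass, with a median log2 fold change of 0.75. Cd24a rose to 291 ± 34.6 CPM in pMIR-Sox2 cells, against 172 ± 7.70 CPM in pMIR cells (adjusted p = 0.000811, edgeR). Spn (CD43) rose to 59.7 ± 8.67 CPM in pMIR-Sox2 cells, against 29.3 ± 6.76 CPM in pMIR cells (adjusted p = 0.00152, edgeR). Ly6d rose to 267 ± 26.2 CPM in pMIR-Sox2 cells, against 117 ± 36.0 CPM in pMIR cells (adjusted p = 0.00163, edgeR). Enpep (BP-1), a marker of pre-B cells, averaged 8.19 ± 5.58 CPM in pMIR-Sox2 cells and 1.05 ± 0.578 CPM in pMIR cells and rose by 2.96 ± 0.55 on the log2 scale (adjusted p = 0.00284), by 2.28 without pMIR-Sox2 replicate 2, and missed the threshold with the replicate block (adjusted p = 0.0597, edgeR). Cd93, found on early and transitional B cells, rose by 1.22 ± 0.24 (adjusted p = 0.00362, edgeR).

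Other genes of the same stages went the other way or were low. Il2ra (CD25), which marks small pre-B cells and also activated B cells, averaged 22.4 ± 2.51 CPM in pMIR-Sox2 cells and 105 ± 28.6 CPM in pMIR cells and fell by 2.23 on the log2 scale (adjusted p = 5.34e-05, edgeR). Flt3, of early progenitors, averaged 6.08 ± 0.822 CPM in pMIR-Sox2 cells and 13.7 ± 3.80 CPM in pMIR cells and fell by 1.18 (adjusted p = 0.00297, edgeR). The pro-B cell cytokine receptor genes did not pass: Il7r averaged 2.26 ± 0.910 CPM in pMIR-Sox2 cells and 3.10 ± 0.661 CPM in pMIR cells (adjusted p = 0.278), and Kit 1.81 ± 1.08 CPM in pMIR-Sox2 cells and 1.67 ± 1.17 CPM in pMIR cells (adjusted p = 0.888, both edgeR). Bst1, Arpp21 and Cd34 were too low to be tested, and Cd34 had 0 counts in pMIR-Sox2 cells.

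Markers of other cells that could have come through the sort were summed in each library. The 12 genes of T cells and thymocytes, which also use Rag1, Rag2 and Dntt, came to between 328 and 398 CPM in pMIR-Sox2 libraries and to between 222 and 285 CPM in pMIR libraries, nearly all of it from Thy1 (305 ± 42.7 CPM in pMIR-Sox2 cells and 195 ± 32.3 CPM in pMIR cells) and Lck. Ptcra had 0 counts in every library, and Cd3e and Cd8a had 0 counts in the pMIR-Sox2 libraries and 2 and 4 in the pMIR libraries. Other genes of the list had counts in both groups. Cd247 averaged 1.85 ± 0.760 CPM in pMIR-Sox2 cells and 1.00 ± 0.123 CPM in pMIR cells (adjusted p = 0.0550, edgeR). Summed pMIR-Sox2 and pMIR counts were 16 and 21 for Gata3, 7 and 3 for Bcl11b, 3 and 7 for Cd3d, 1 and 9 for Cd3g, 2 and 1 for Cd4, and 1 and 1 for Cd8b1. Plasmacytoid dendritic cells are another type in which recombination genes have been found, and the sum of their 7 genes was 69.3 to 90.0 CPM in pMIR-Sox2 libraries and 95.8 to 117 CPM in pMIR libraries, with Siglech near 0 in both groups and Klk1 at 0. Of the 4 tested, Pacsin1 fell to 23.9 ± 5.62 CPM in pMIR-Sox2 cells, against 57.3 ± 5.24 CPM in pMIR cells (adjusted p = 0.000416, edgeR). Ly6c2 rose to 1.85 ± 1.13 CPM in pMIR-Sox2 cells, against 0.295 ± 0.287 CPM in pMIR cells (log2 fold change 2.70, and 3.81 without pMIR replicate 2, adjusted p = 0.0105, edgeR). The part of these genes in the values of the 7 members was not tested.

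The 8 myeloid genes summed to between 29.6 and 36.4 CPM in pMIR-Sox2 libraries and to between 18.3 and 21.7 CPM in pMIR libraries, and 3 of the 4 tested rose (Lyz2, Itgam and Emr1), with S100a8 and S100a9 at 0 in every library. Lyz2 averaged 0.653 ± 0.121 CPM in pMIR-Sox2 cells and 0.0283 ± 0.0251 CPM in pMIR cells, and its part in the Igll1, Vpreb1 and Vpreb2 values was not tested. The 6 NK cell genes summed to between 0.433 and 0.753 CPM in pMIR-Sox2 libraries and to between 0.576 and 1.00 CPM in pMIR libraries, with Ncr1 at 0. Of the 7 erythroid genes 3 had 0 counts throughout, and the sum was 1.88 to 3.03 CPM in pMIR-Sox2 libraries and 1.18 to 1.58 CPM in pMIR libraries. Hbb-b2, the erythroid gene that was tested, rose to 1.83 ± 0.535 CPM in pMIR-Sox2 cells, against 0.751 ± 0.108 CPM in pMIR cells (adjusted p = 0.00855, edgeR). The 8 mature B cell genes summed to between 2897 and 3864 CPM in pMIR-Sox2 libraries and to between 5071 and 6001 CPM in pMIR libraries, with 2 that rose and 5 that fell.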

How the data were processed

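Total RNA of sorted B cells was sequenced, and the authors deposited the raw counts of each Ensembl gene, with a column for every library. The submitters' processing notes name HTSeq 0.6.1p1, SAMtools 0.1.19, TopHat2 2.0.11, Bowtie2 2.2.2 and Trimmomatic 0.32, and the build mm9. The roles of the tools, the strand setting and the annotation release are not given in the sources used here. Closing lines that name no gene stayed out of library sizes and tests. Genes took 52.3 to 53.0% of a library's table total in pMIR-Sox2 cells and 51.9 to 53.2% in pMIR cells.

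Titles of the samples gave the group and the replicate number. Counts were fitted with edgeR 4.0.16 in R 4.3.3 (filterByExpr by group with its minimum count of 10, trimmed-mean (TMM) scaling, robust quasi-likelihood test, pMIR-Sox2 over pMIR). The p-values of the 12899 tested genes were adjusted by Benjamini-Hochberg, and those under 0.05 passed. The fitted log2 fold changes use the default prior count of 0.125. Sox2 was left out of counts of genes. Members under the filter were given as counts, with exact Poisson 95% intervals, an exact permutation test of CPM and the fit with no filter. The prior count of log2 CPM for the likeness of genes was 2. The biological coefficient of variation common to the genes was 14.4%. The fit was tested on simulated data first. Alternatives were no filter, DESeq2 size factors or library totals in place of TMM, DESeq2 1.42.0, limma-voom (limma 3.58.1), a replicate block, a prior count of 2, Vpreb1 and Vpreb2 summed, and each library left out. Running each alternative with no filter for members under it was added after seeing the data.

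Same-numbered libraries of the groups deviated together from their group means (correlations 0.242, 0.359 and 0.189), and their descriptions share a number. The replicate numbers may therefore pair them. The main fit and the permutation test did not use this pairing, and only the replicate block did. The pairing comes from the data and from those shared numbers, and what the numbers stand for is not stated.

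The members, lists and motifs were chosen with earlier results of these data known. Named were the members, Sox2, the nearest protein-coding gene in the table on either side of each member (a refinement made after the annotation was seen, with predicted names left out where another gene could be taken), up to 4 genes of smallest adjusted p per list, and the 3 genes most like each tested member. Other list genes were named after their values were seen. A list gene that the rule would name is not reported here. Spi1 is Sfpi1 in the table, and Iglc1 was not analysed here. Sequences, neighbours, overlaps and exon lengths come from RefSeq and GENCODE M21 on GRCm38, another build than mm9, and served only for these descriptions.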

Additional observations from a re-analysis of the deposited data

How the results depend on the processing

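Igll1 rose in every fit run across all genes, with log2 fold changes from 4.51 to 6.16 and adjusted p values up to 0.00133. Its exact permutation p of 0.1 is the smallest that 3 libraries against 3 allow, so that test could not pass. The number of the 7 genes that rose was 1 as reported, 4 with no filter, and 2 with the replicate block, with library totals only and with the DESeq2 Wald test. Leaving out 1 library at a time gave 1 to 3. The added genes are Vpreb3, whose adjusted p ran from 0.00291 to 0.212 over the alternatives, and, where the filter lets them in through their pMIR-Sox2 counts, Vpreb1 and Vpreb2, whose adjusted p reached at most 0.0244 and 0.0133 without 1 library. None of the 7 fell under any alternative run. In the end-joining list the number that fell was 2, and 1 with no filter or with library totals only (1 to 3 without 1 library). In the pre-B cell receptor list the number that rose was 2, and 5 with the replicate block (1 to 4 without 1 library), and the number that fell ran from 3 to 6 without 1 library. Of the light chain genes 0 rose, and 1 with the replicate block. The block changed the call of Vpreb3, Enpep, Iglc3, Zfp580 and Chrnb1 as printed above. Changes near 0 turned sign in Rag1 (-0.18 with no filter, without pMIR-Sox2 replicate 3), Tcf3 (-0.010 to 0.10 without 1 library, lowest without pMIR replicate 2) and Kit (-0.47 to 0.49 without 1 library, with -0.47 without pMIR-Sox2 replicate 1 and -0.35 without pMIR replicate 2). With the depth of these libraries, Rag1, Rag2 and Dntt cannot be ranked between the groups.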
